A study of Mus musculus with 6 samples.

Results

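Expression of 35 mouse genes of the early nervous system was followed in embryoid bodies that lacked the TET enzymes. The genes were chosen by name for their roles in neuroectoderm and in neurons, with earlier results of these data known. Of the 35 genes, 23 act in neural progenitors or mark regions of the neural tube, and 12 encode structural and synaptic proteins of neurons. The array carried 50 probes for them, 1 probe for 23 genes and several for 12 genes. Tests could be made for 30 of the 35 genes, among 14578 named genes in all.

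Embryoid bodies are aggregates in which embryonic stem cells, once the self-renewal factor LIF is withdrawn, form derivatives of the germ layers. TKO_26 and TKO_29 were 2 independent mouse embryonic stem cell lines in which Tet1, Tet2 and Tet3 were all knocked out, and WT was 1 wild-type line. Every line had a mixed 129/C57BL6 background and went through the same culture without LIF, 2 days in hanging drops and 8 days in suspension, with RNA taken at day 10. Each line was measured on 2 arrays, which the series describes as technical replicas without stating whether they share RNA, so the p-values measure only the spread between arrays of a line. The labels do not say how each line was derived or cloned.

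Neuroectoderm is the epithelium that gives rise to the brain and spinal cord. Its dividing progenitors are kept in that state by SoxB1 transcription factors and by Notch signalling, while Pax, Zic, Lhx and Nkx factors give them a position along the neural tube. Proneural basic helix-loop-helix factors then drive progenitors out of division, and the neurons that form switch on their own tubulins, neurofilaments, adhesion molecules and synaptic vesicle proteins. TET enzymes oxidise 5-methylcytosine, a DNA mark that in mammals lies mostly at CG dinucleotides, and are known from mouse work to shape gene expression during differentiation.

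A level is given here as a log2 normalised signal, in which 0 is the 75th percentile of that array, so that only levels of the same probe can be set against each other. The share of spots well above background ranged from 38.4% to 55.8% and was lowest on TKO_26 replicate 1, where repeated spots of a probe had a median coefficient of variation of 9.60%, against 4.33% to 5.48% on the other arrays. The SD between the arrays of a line was 0.383 in TKO_26, 0.234 in TKO_29 and 0.300 in WT (log2). It was taken over 13259 features, which are named genes and probe targets without a gene symbol. Tet1 stood at -2.01 and -2.17 in TKO_26 and at -2.69 and -2.81 in TKO_29, against -0.93 and -1.21 in WT. Tet2 stood at -3.85 and -3.77 in TKO_26 and at -4.73 and -4.51 in TKO_29, against -2.84 and -2.59 in WT, and both genes fell in both lines. Tet3 stood at -4.53 and -5.45 in TKO_26 and at -6.86 and -6.44 in TKO_29, against -5.87 and -6.20 in WT, and passed the test in neither line. Where these probes lie relative to the deleted parts was not settled, so their levels are no check of the deletions. The 6 arrays shared 1 slide, with TKO in one column of it and WT in its other column, and slide position and genotype cannot be told apart.

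The promoters of 4 genes are shown because these genes moved together in both TKO lines in the results that follow, Sox21 and Pax7 upwards and Tubb3 and Syt1 downwards. RefSeq sequences of 300 bases around the annotated start, mostly upstream of it, on build GRCm38.p6, were at hand for 26 of the 35 genes. They are written 5′ to 3′ on the strand of the gene, with CG dinucleotides in capitals.
Sox21, chr14:118236981-118237280, minus strand: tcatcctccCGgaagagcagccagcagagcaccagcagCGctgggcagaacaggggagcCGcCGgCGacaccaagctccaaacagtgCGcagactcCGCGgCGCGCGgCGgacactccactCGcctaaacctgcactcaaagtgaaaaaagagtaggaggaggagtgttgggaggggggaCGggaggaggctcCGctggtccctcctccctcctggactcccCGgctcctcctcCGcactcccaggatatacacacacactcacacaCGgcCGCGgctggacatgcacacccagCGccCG
Pax7, chr4:139832919-139833218, minus strand: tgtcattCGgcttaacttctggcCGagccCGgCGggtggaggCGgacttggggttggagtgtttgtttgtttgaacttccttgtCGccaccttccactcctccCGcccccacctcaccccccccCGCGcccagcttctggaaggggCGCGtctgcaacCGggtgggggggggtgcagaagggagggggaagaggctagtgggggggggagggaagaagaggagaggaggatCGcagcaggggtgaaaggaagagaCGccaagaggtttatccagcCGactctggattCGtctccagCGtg
Tubb3, chr8:123411303-123411602, plus strand: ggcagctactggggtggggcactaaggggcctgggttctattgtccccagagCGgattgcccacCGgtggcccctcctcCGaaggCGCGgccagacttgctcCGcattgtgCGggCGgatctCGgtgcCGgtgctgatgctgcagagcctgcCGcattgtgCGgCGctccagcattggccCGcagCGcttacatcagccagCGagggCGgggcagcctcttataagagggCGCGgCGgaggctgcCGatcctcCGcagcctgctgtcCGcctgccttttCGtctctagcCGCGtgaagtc
Syt1, chr10:109010926-109011225, minus strand: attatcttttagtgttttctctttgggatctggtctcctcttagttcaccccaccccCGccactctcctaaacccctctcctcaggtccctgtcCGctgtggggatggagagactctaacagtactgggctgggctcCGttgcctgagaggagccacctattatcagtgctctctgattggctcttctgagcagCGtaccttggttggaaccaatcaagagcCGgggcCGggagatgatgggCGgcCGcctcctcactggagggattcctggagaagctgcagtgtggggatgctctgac
The Tubb3 window held 26 CG dinucleotides, a number that 16.9% of the 32851 promoters in the table reached or passed. Sox21 held 22 (reached by 23.1%), Pax7 17 (31.4%) and Syt1 8 (48.6%), and the table gave 2 starts for Syt1, of which the 5′-most is shown. Promoters of the progenitor and regional genes held a median of 18 CG dinucleotides (range 6 to 41, n = 20) and those of the neuronal genes a median of 24.5 (range 3 to 37, n = 6), beside a median of 7 in all promoters. The medians of both groups thus lay above that of all promoters, and the numbers for Sox21 and Pax7, which rose, lay between those for Tubb3 and Syt1, which fell. Both strands were searched for CTTTGT, the core of SOX sites, for TAATTA, the core of many homeodomain sites, and for CAGCTG, one form of the E-box that basic helix-loop-helix factors bind. CTTTGT was found in the windows of Hes5 and Dll1 (in 18.7% of all promoters), TAATTA in those of Neurog1 and Dcx (5.30%) and CAGCTG in those of Dll1 and Elavl3 (16.3%), and none of the 3 was in the 4 windows printed here. The promoters of Sox3, Pax3, Zic2, Ncam1, Gap43, Snap25, Nefl, Nefm and Stmn2 are named only. DNA methylation was not measured on these arrays.

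The comparison of each TKO line with WT asked how neural genes were expressed after differentiation without TET enzymes. The progenitor and regional genes called in both lines were higher than in WT, and the neuronal genes called in both lines were lower. The SoxB genes Sox3 and Sox21 and the dorsal neural tube genes Pax3 and Pax7 rose in both TKO lines, by 2.27-fold to 5.44-fold for the 3 of them that were measured above background in WT. The neuronal genes Tubb3, Gap43, Ncam1 and Syt1 fell in both TKO lines, by 2.22-fold to 4.56-fold. With the brightest probe standing for each gene, no progenitor or regional gene fell in both lines and no neuronal gene rose in both. A dimmer probe of the regional gene Zic1 did fall in both lines when each probe was tested.

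A gene was called in a line when limma gave an adjusted p under 0.05 (Benjamini-Hochberg over 21421 features) and a difference of at least 2-fold, and "rose" or "fell" without a line named means a call in both lines. Of 19 progenitor and regional genes tested, 4 rose and 0 fell, where 4.05% of all features rose and 6.59% fell. Of 11 neuronal genes tested, 0 rose and 4 fell. Pax7, 1 of the 4 that rose, entered only through the TKO lines where it is high, so its place in this count is a description. With signal required on all 6 arrays, 3 progenitor and regional genes rose and 3 neuronal genes fell, where 2.92% of all features rose and 4.8% fell. Against WT, TKO_26 had 4 progenitor and regional genes higher and 1 lower, and 0 neuronal genes higher and 4 lower, where 5.60% of all features rose and 7.79% fell in that line. TKO_29 had 8 progenitor and regional genes higher and 1 lower, and 0 neuronal genes higher and 5 lower, where 8.16% of all features rose and 11.2% fell. Pax7 in the counts of both lines and Pax6 in that of TKO_29 entered only through the TKO lines where they are high. Their places in these counts are a description. Zic1, also among the 8, fell on its dimmer probe when each probe was tested. The 2 comparisons share the WT arrays. On the log2 scale the median difference of the progenitor and regional genes tested was 0.46 in TKO_26 and 0.74 in TKO_29, and that of the neuronal genes -0.83 and -0.02, against 0.02 and -0.09 over all features. The neuronal median thus lay near 0 in TKO_29, where 5 of its 11 genes were called lower.

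The tested genes are not a neutral sample, since a gene entered only with both arrays of some line well above background. Through the TKO lines alone entered Pax7, Lmx1a, Pax6, Pou3f2, Neurod1 and Map2, and through WT alone none. Not tested were Pou3f3, Olig2, Neurog1, Neurog2 and Dcx, and 18 genes were well above background on all 6 arrays. Over the 23 progenitor and regional genes with no filter the median of the mean difference of the TKO lines from WT was 0.39, and over the 12 neuronal genes it was -0.84, both on the log2 scale. In bulk RNA of embryoid bodies, fewer cells of a type and less RNA per cell cannot be told apart.

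When each line counted as 1 replicate (1 WT line and 2 TKO lines), limma on the line averages called 0 of the 30 genes, where 0.906% of all features were called. At an unadjusted p under 0.05, 15 of the 30 genes passed, as did 3849 of the 21421 features, and the adjusted p of the 30 genes lay between 0.105 (Gap43) and 0.955 (Nkx2-2). The test between TKO_29 and TKO_26 called 0 of the 30 genes, with 0% of all features called, and 5 of the 30 genes had an unadjusted p under 0.05. In the authors' deposited matrix Sox3, Sox21, Pax3, Tubb3, Ncam1 and Gap43 were called on line averages, with a variance trend all of these but Sox21, and with normexp background correction Tubb3 and Gap43. Those settings also called more of all features, 8.46% in the matrix, 7.10% with the trend and 3.83% with normexp. With the main settings line averages gave no call for any of the 30 genes, and the calls that follow compare each TKO line with the single WT line.

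**Figure D1:**
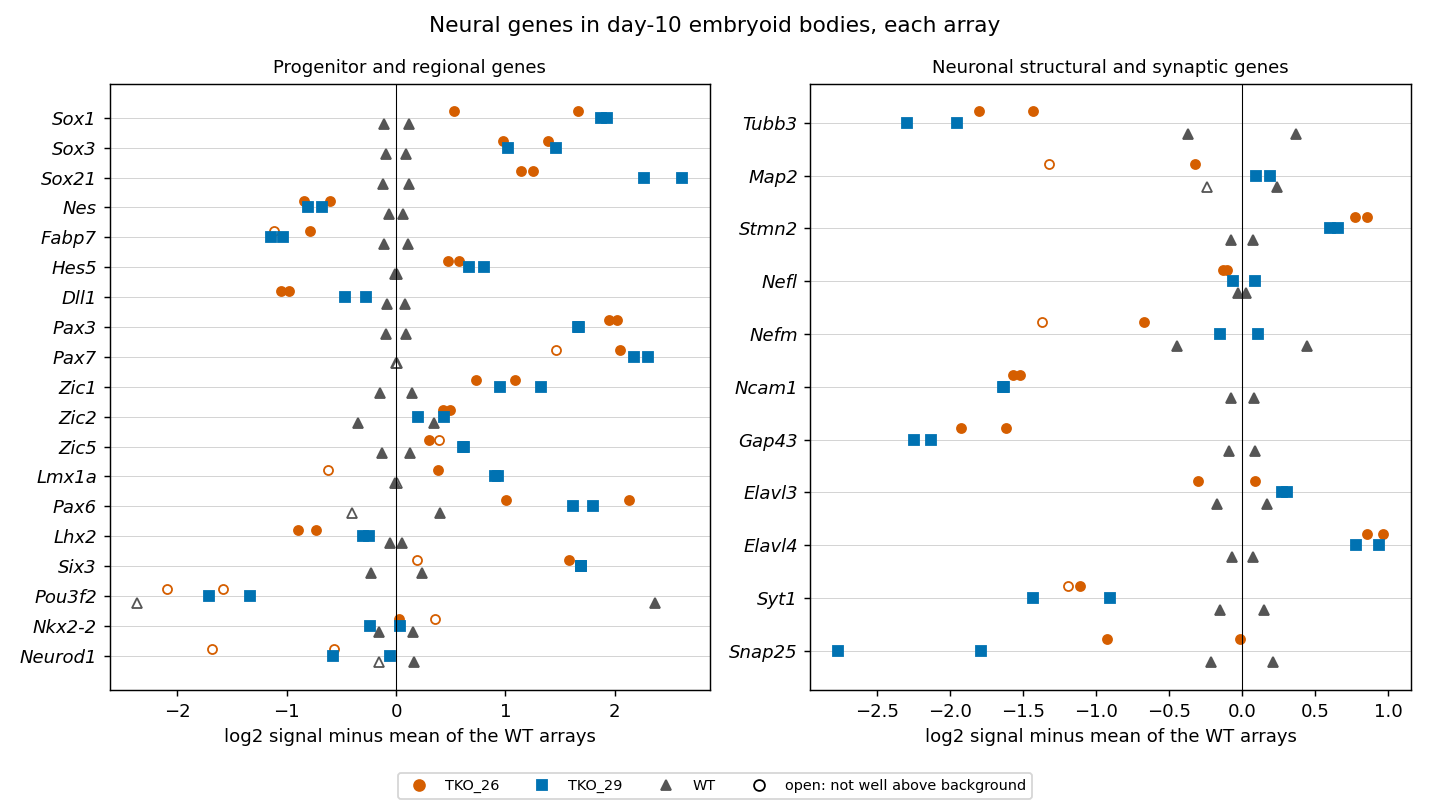
Signal of the 30 tested genes on each array, as log2 normalised signal minus the mean of the 2 WT arrays of that gene (x axis), with the 19 progenitor and regional genes on the left and the 11 neuronal genes on the right. Orange circles are TKO_26, blue squares TKO_29 and grey triangles WT, 2 arrays each, and open symbols mark arrays where the probe was not well above background; Pax3 and Sox21 lie to the right of WT on every TKO array, Gap43 and Ncam1 to the left.

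SoxB1 factors such as Sox3 hold neural progenitors in their dividing state. Sox3, on the X chromosome, had log2 normalised signals of -0.16 and -0.57 in TKO_26 and -0.53 and -0.09 in TKO_29, against -1.45 and -1.64 in WT. All 4 TKO arrays lay above both WT arrays. The rise was 2.27-fold in TKO_26 (log2 difference 1.18 ± 0.23 SE, limma adjusted p = 0.0249) and 2.36-fold in TKO_29 (1.24 ± 0.23, adjusted p = 0.0161). This call was lost when TKO_26 replicate 1, either TKO_29 array or either WT array was left out, with the mean difference of the TKO lines at 1.103 to 1.32, and also without a filter on dim probes, with normexp background correction and with the replicate number as a block.

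Sox21, a SoxB factor that in chick promotes the exit of progenitors towards neurons, had -4.26 and -4.37 in TKO_26 and -3.24 and -2.89 in TKO_29, against -5.63 and -5.40 in WT. The 3 lines did not overlap, and TKO_29 was the highest. Against WT it rose 2.29-fold in TKO_26 (1.20 ± 0.18, adjusted p = 0.0116) and 5.44-fold in TKO_29 (2.45 ± 0.18, adjusted p = 0.00164), and between TKO_29 and TKO_26 the difference of 1.25 had an adjusted p of 0.0642, which passed the threshold with signal required on all 6 arrays, in the authors' deposited matrix and with a variance trend, settings that called 2.19%, 1.15% and 2.25% of all features between the lines. A second, dimmer probe gave 1.60 and 2.27 against WT and was not called when each probe was tested. Leaving out TKO_26 replicate 1 or WT replicate 1 ended the call, at mean differences of 1.80 and 1.71, as did dropping the filter on dim probes, normexp background correction (1.39) and averaging the probes (1.88).

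Sox1, one of the earliest markers of neuroectoderm, had -4.82 and -3.68 in TKO_26 and -3.42 and -3.47 in TKO_29, against -5.23 and -5.46 in WT. The TKO_26 arrays were 1 near WT and 1 near TKO_29. Sox1 was called in TKO_29 (3.74-fold, log2 difference 1.90 ± 0.39, adjusted p = 0.0205) and not in TKO_26 (1.096, adjusted p = 0.109), and the difference of 0.81 between TKO_29 and TKO_26 had an adjusted p of 0.271. Without TKO_26 replicate 1 it was called in both lines, at a mean difference of 1.78. Sox1 lies on chromosome 8, where the median difference over 639 genes was 0.44 in TKO_26 and 0.42 in TKO_29 (range of the other chromosomes -0.13 to 0.03), and relative to that median its differences were 0.66 and 1.49.

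Nes, which encodes the intermediate filament nestin of neural progenitors, lay on the other side of WT from the SoxB genes. It had -0.74 and -0.98 in TKO_26 and -0.94 and -0.82 in TKO_29, against -0.08 and -0.21 in WT, with no overlap. The differences of -0.72 and -0.74 had adjusted p-values of 0.0269 and 0.0185 in limma and were smaller than 2-fold. Fabp7, the fatty acid binding protein of radial glia, had -6.00 and -5.67 in TKO_26 and -5.92 and -6.03 in TKO_29, against -4.99 and -4.77 in WT. It was called lower in TKO_29 (2.13-fold, adjusted p = 0.0103) and came just short of 2-fold in TKO_26 (1.93-fold, adjusted p = 0.0199), where replicate 1 was not well above background; without TKO_26 replicate 2 it was called in both, at a mean difference of -1.10. These 2 progenitor genes were thus lower where Sox3 and Sox21 were higher.

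Of the Notch genes of progenitors, Hes5, a repressor that Notch signalling switches on, had -3.87 and -3.97 in TKO_26 and -3.64 and -3.78 in TKO_29, against -4.44 and -4.46 in WT. All TKO arrays were above WT, but the differences of 0.52 (adjusted p = 0.0395) and 0.74 (adjusted p = 0.0119) stayed under 2-fold. Dll1, the Notch ligand shown by cells that begin to differentiate, had -5.54 and -5.61 in TKO_26 and -5.02 and -4.83 in TKO_29, against -4.47 and -4.64 in WT. It was called lower in TKO_26 (2.02-fold, log2 difference -1.02 ± 0.14, adjusted p = 0.00901), while TKO_29 differed by -0.37 (adjusted p = 0.0889), and the difference between TKO_29 and TKO_26 of 0.65 had an adjusted p of 0.0987.

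Pax3 and Pax7 are paired-box factors of the dorsal neural tube, also known from neural crest and somites. Pax3 had log2 normalised signals of -3.42 and -3.35 in TKO_26 and -3.70 and -3.70 in TKO_29, against -5.45 and -5.28 in WT. The gap between the TKO arrays and WT was several times the distance between arrays of a line. It rose 3.96-fold in TKO_26 (1.98 ± 0.12, limma adjusted p = 0.00136) and 3.17-fold in TKO_29 (1.67 ± 0.12, adjusted p = 0.00179). Its second probe gave 1.95 and 1.81 and was called as well when each probe was tested (adjusted p = 0.00621 and 0.00563), and Pax3 stayed called in all 16 alternative settings.

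Pax7 had -7.48 and -6.90 in TKO_26 and -6.77 and -6.64 in TKO_29, against -8.95 and -8.94 in WT. Its probe was well above background on 1 TKO_26 array, on both TKO_29 arrays and on neither WT array. The fitted log2 differences were 1.75 ± 0.22 (adjusted p = 0.00768) and 2.24 ± 0.22 (adjusted p = 0.00330). Because WT gives only a bound, Pax7 was at least 1.29-fold higher in TKO_26 and at least 1.80-fold higher in TKO_29; for such a bound the dim arrays were set at the lowest signal counted as well above background there, unless the probe itself was brighter. Its call was lost without WT replicate 1 (mean difference 1.99), with normexp background correction (0.44), with quantile normalisation (2.33) and in the authors' deposited matrix (0.87).

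The zinc finger factors Zic1, Zic2 and Zic5 mark the dorsal neural tube and neural plate border. The brighter Zic1 probe had -3.73 and -4.09 in TKO_26 and -3.87 and -3.50 in TKO_29, against -4.97 and -4.67 in WT, without overlap. It was called higher in TKO_29 (2.20-fold, adjusted p = 0.0179) and came short of 2-fold in TKO_26 (1.88-fold, adjusted p = 0.0437). The other Zic1 probe pointed the opposite way: it had -8.08 and -7.94 in TKO_26 and -8.21 and -8.43 in TKO_29, against -6.19 and -6.24 in WT. With each probe tested, it fell in both lines (log2 differences -1.79 and -2.10, adjusted p = 0.00273 and 0.00171), so that Zic1 as a gene has no settled direction here.

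Zic2 differed from WT by 0.46 in TKO_26 and 0.32 in TKO_29 (adjusted p = 0.267 and 0.373). Its TKO arrays lay at -4.04 to -3.75, and the WT arrays at -3.89 and -4.58 overlapped them. Zic5 differed by 0.35 (adjusted p = 0.144) and 0.62 (adjusted p = 0.0272), under 2-fold in both. Lmx1a, a LIM homeobox factor of the roof plate and midbrain floor plate, had -7.40 and -6.39 in TKO_26 and -5.85 and -5.88 in TKO_29, against -6.77 and -6.78 in WT. TKO_26 lay on both sides of WT, TKO_29 above it, and neither difference (-0.12 and 0.92) passed the test, with an adjusted p of 0.0914 for TKO_29.

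Among genes of the forebrain and eye field, Pax6, a paired-box factor of eye and cortical progenitors, had -5.59 and -6.72 in TKO_26 and -6.11 and -5.93 in TKO_29, against -8.13 and -7.32 in WT. Every TKO array was above WT, where 1 of 2 arrays was well above background. It was called in TKO_29 (1.71 ± 0.46, adjusted p = 0.0433) and not in TKO_26 (1.57, adjusted p = 0.0710), and without TKO_26 replicate 2 it was called in both, at a mean difference of 1.92. Six3, a homeobox factor needed for the anterior forebrain, had -5.52 and -4.13 in TKO_26 and -4.02 and -4.02 in TKO_29, against -5.48 and -5.95 in WT. As for Sox1, TKO_26 replicate 1 lay at the level of WT and replicate 2 at that of TKO_29; Six3 was called in TKO_29 by a narrow margin (1.69 ± 0.48, adjusted p = 0.04998), not in TKO_26 (0.88, adjusted p = 0.251), and in both lines without TKO_26 replicate 1 (1.63).

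Lhx2, a LIM homeobox factor of cortical and eye progenitors, had -3.34 and -3.18 in TKO_26 and -2.70 and -2.75 in TKO_29, against -2.39 and -2.51 in WT. The difference was -0.81 in TKO_26 (adjusted p = 0.0138) and -0.28 in TKO_29 (adjusted p = 0.142), and under 2-fold in both. Pou3f2, a POU factor of neuronal precursors, had -8.55 and -9.07 in TKO_26 and -8.31 and -8.68 in TKO_29, against -4.60 and -9.34 in WT. Its WT arrays differed more than any TKO array did from either, so the mean difference of -1.68 turned to 0.69 without WT replicate 1, and became -4.05 and called without WT replicate 2.

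Nkx2-2, a homeobox factor of the ventral neural tube and of pancreatic endocrine cells, differed by 0.19 in TKO_26 and -0.10 in TKO_29 (adjusted p = 0.552 and 0.715), with all lines overlapping. Neurod1, a basic helix-loop-helix factor of differentiating neurons and endocrine cells, had -7.81 and -8.92 in TKO_26 and -7.81 and -7.29 in TKO_29, against -7.40 and -7.08 in WT. Neither difference (-1.13 and -0.32) passed the test. Its relatives Neurog1 and Neurog2, the proneural factors of sensory and cortical progenitors, were not well above background on any array, nor was Olig2 of ventral progenitors on any TKO array. Olig2 was well above background on 1 WT array and Pou3f3, a POU factor of the forebrain, on 1 TKO_29 array, and no fold was tested for either.

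**Figure D2:**
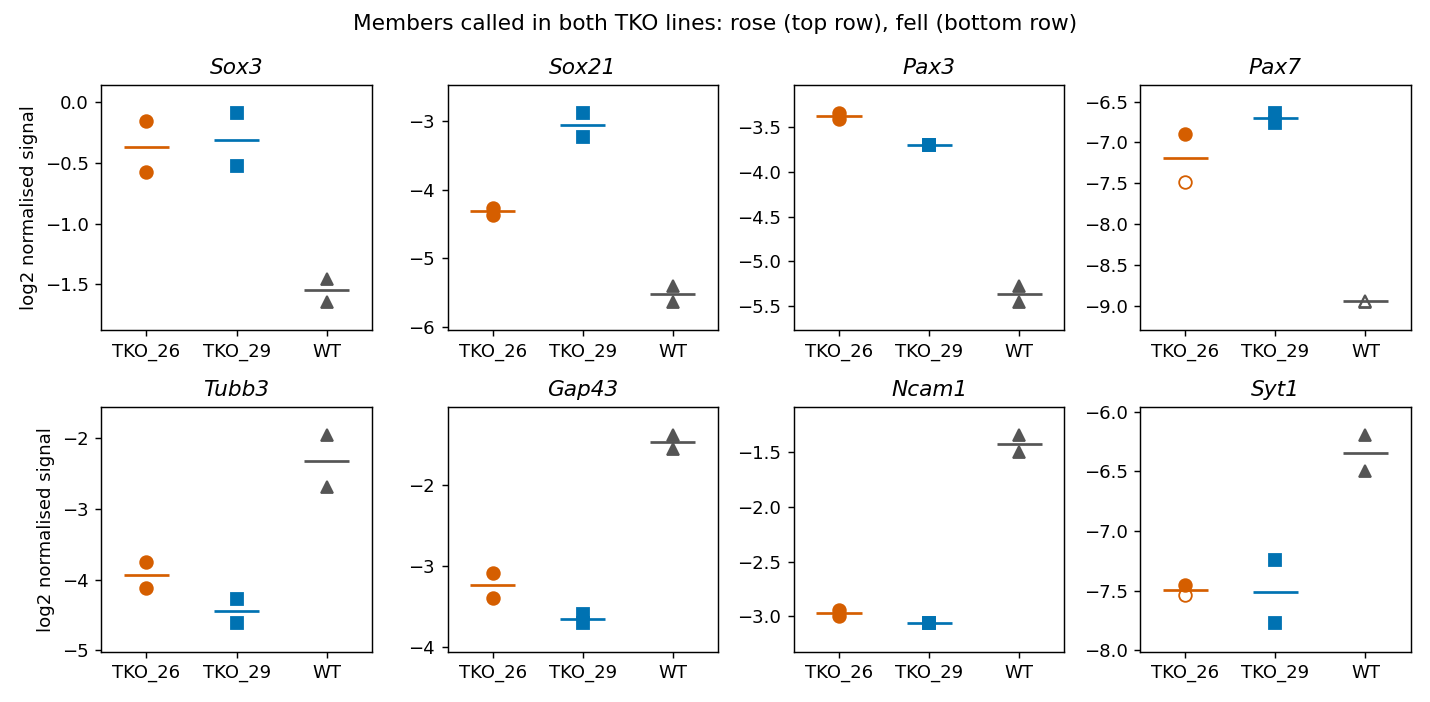
Log2 normalised signal (y axis, with its own range in each panel) of the 8 genes called in both TKO lines, on the 2 arrays of TKO_26, TKO_29 and WT (x axis). Symbols are arrays, open where the probe was not well above background, and bars are line means; in the top row the 4 TKO arrays lie above both WT arrays, in the bottom row below them.

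The neuronal genes that fell belong to the axonal cytoskeleton, the growth cone, cell adhesion and the synapse. Tubb3, the beta-tubulin of neurons, had log2 normalised signals of -3.76 and -4.12 in TKO_26 and -4.62 and -4.28 in TKO_29, against -1.95 and -2.69 in WT. It fell 3.06-fold in TKO_26 (log2 difference -1.62 ± 0.31, limma adjusted p = 0.0232) and 4.36-fold in TKO_29 (-2.13 ± 0.31, adjusted p = 0.00840). Tubb3 shares chromosome 8 with Sox1, and relative to the raised median of that chromosome its differences were -2.05 and -2.54. The call was lost when any array but WT replicate 2 was left out, with the mean difference at -1.50 without WT replicate 1 and -1.78 to -1.96 without each TKO array, and also with no filter on dim probes or with normexp background correction (-1.74).

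Gap43, a membrane protein of growing axons, had -3.08 and -3.39 in TKO_26 and -3.71 and -3.60 in TKO_29, against -1.38 and -1.55 in WT. TKO_29 was lowest, TKO_26 between, and WT highest, with no overlap. Gap43 fell 3.41-fold (-1.77 ± 0.16, adjusted p = 0.00336) and 4.56-fold (-2.19 ± 0.16, adjusted p = 0.00173) in TKO_26 and TKO_29, and was called in all 16 alternative settings.

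Ncam1, the neural cell adhesion molecule, which heart and skeletal muscle also express, had -2.95 and -3.00 in TKO_26 and -3.06 and -3.06 in TKO_29, against -1.50 and -1.34 in WT on its brightest probe. The fall was 2.92-fold in TKO_26 (-1.55 ± 0.12, adjusted p = 0.00221) and 3.11-fold in TKO_29 (-1.64 ± 0.12, adjusted p = 0.00174). A dimmer probe gave -0.12 and 0.64 and was not called, and the other dim one was below background on every array. Averaging the probes ended the call, at a mean difference of -0.67.

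Synaptic vesicle release depends on Syt1, the calcium sensor synaptotagmin, and Snap25, a membrane fusion protein. Syt1 had -7.54 and -7.45 in TKO_26 and -7.78 and -7.25 in TKO_29, against -6.50 and -6.20 in WT, and TKO_26 replicate 1 was not well above background. It fell 2.22-fold (-1.15 ± 0.22, adjusted p = 0.0251) and 2.24-fold (-1.17 ± 0.22, adjusted p = 0.0177) in TKO_26 and TKO_29. This was the least stable of the 8 calls, kept in 6 of 15 alternative settings and lost without either TKO_26 array, TKO_29 replicate 1 or either WT array (mean differences -1.01 to -1.31), and the difference shrank to -0.55 with normexp background correction and -0.36 in the authors' deposited matrix. Snap25 had -2.75 and -3.66 in TKO_26 and -5.50 and -4.51 in TKO_29, against -2.52 and -2.94 in WT. TKO_26 overlapped WT and TKO_29 lay below both; Snap25 was called lower in TKO_29 (4.85-fold, -2.28 ± 0.46, adjusted p = 0.0204), with -0.47 in TKO_26 (adjusted p = 0.519) and an adjusted p of 0.127 between the lines.

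The remaining neuronal genes were called in neither line. Stmn2, a microtubule regulator of growing axons, had -0.75 and -0.82 in TKO_26 and -0.94 and -1.001 in TKO_29, against -1.53 and -1.67 in WT. Elavl4, a neuronal RNA-binding protein, had -4.44 and -4.33 in TKO_26 and -4.35 and -4.52 in TKO_29, against -5.22 and -5.36 in WT. On all TKO arrays both genes were above WT, with limma adjusted p-values of 0.0102 to 0.0183 in both lines, but the differences of 0.81 and 0.63 for Stmn2 and of 0.91 and 0.86 for Elavl4 were under 2-fold. The dimmer Elavl4 probe gave 0.58 and 0.32 and was not called.

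Nefl, the light neurofilament chain, differed from WT by -0.12 and 0.01 (adjusted p = 0.531 and 0.943) with an SE of 0.12. Nefm, the medium chain, had -6.94 and -6.24 in TKO_26 and -5.46 and -5.72 in TKO_29, against -6.02 and -5.13 in WT, and its difference of -1.02 in TKO_26 had an adjusted p of 0.127. Elavl3, a close relative of Elavl4, differed by -0.11 and 0.29 (adjusted p = 0.727 and 0.291). Map2, a microtubule protein of dendrites, differed by -0.83 and 0.14 (adjusted p = 0.181 and 0.786), and its dimmer probe by -0.15 and 0.77. For each of these 4 genes TKO arrays lay on both sides of at least 1 WT array, and a p above the threshold does not show that they were equal. Dcx, the microtubule protein doublecortin of migrating neurons, was well above background on 1 WT array with 1 of its 3 probes and on no TKO array, so it was not tested.

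**Figure D3:**
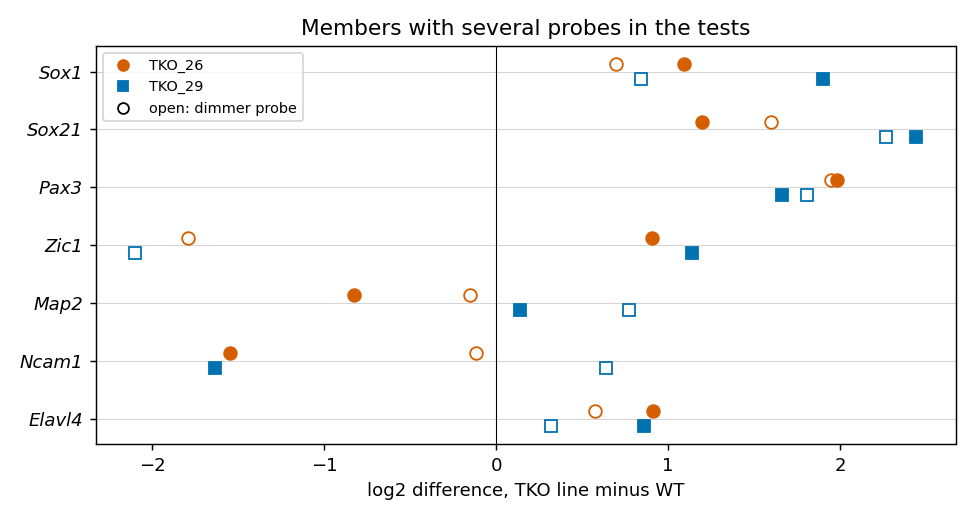
Log2 difference of each TKO line from WT (x axis) for each probe of the 7 genes with several probes in the tests. Filled symbols are the brighter probe, which stands for the gene, open symbols the dimmer one, orange circles TKO_26 and blue squares TKO_29; the probes of Pax3 lie together, while those of Zic1 lie on opposite sides of 0.

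The wider set of 40 further neural progenitor genes was split. Of 29 tested, 7 rose and 3 fell (4.05% and 6.59% of all features), with a median mean difference of 0.08 on the log2 scale against -0.04 over all features. Of the 7, Otx1, Dbx1 and Gbx2 entered the tests only through the TKO lines where they are high, so their count is a description. Sox2, the SoxB factor of both pluripotent cells and neural progenitors, rose 2.06-fold in TKO_26 and 2.64-fold in TKO_29. Among regional genes, Nkx6-1 of the ventral neural tube rose 2.58-fold and 3.31-fold, and En2 of the midbrain-hindbrain boundary 2.43-fold and 2.20-fold. Gbx2 of the anterior hindbrain rose 2.25-fold and 2.17-fold, with 1 WT array well above background. Otx1 and Dbx1 rose by fitted log2 differences of 2.12 and 2.43, and of 1.54 and 3.00, from probes below background on both WT arrays; as bounds, Otx1 was at least 1.15-fold higher in TKO_29 and Dbx1 at least 1.37-fold and 3.80-fold higher.

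The 3 that fell were Ebf3, Ebf2 and Insm1. Ebf3 and Ebf2, factors of differentiating neurons that mesenchyme also expresses, fell, with log2 differences of -4.99 in TKO_26 and -4.54 in TKO_29 for Ebf3 and of -2.96 and -2.34 for Ebf2. Insm1, a factor of newborn neurons and endocrine cells, fell 2.40-fold and 2.28-fold. On line averages Ebf3 was the 1 gene of this set called (adjusted p = 0.0462). Nkx6-1, Sox2, En2, Gbx2 and Insm1 were named after their values were seen.

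Of 42 further neuronal genes tested out of 49, 3 rose and 10 fell (4.05% and 6.59% of all features). Their median mean difference was -0.50, against -0.04 over all features. Of the 3, Gad1 and Cntn2 entered only through the TKO lines where they are high. Map1b, a microtubule protein of axons, fell 3.41-fold in TKO_26 and 14.6-fold in TKO_29. Chga, the secretory granule protein chromogranin A, fell 4.84-fold and 5.67-fold, and Stmn4, a neuronal relative of Stmn2, fell 3.91-fold and 5.28-fold. Slc32a1, the vesicular transporter for inhibitory transmitters, fell 3.99-fold and 3.90-fold. Nsg1, Chgb, Kif5c, Crmp1 and Rab3a fell by 2.01-fold (Rab3a in TKO_26) to 3.72-fold (Nsg1 in TKO_29). Snap91 fell at least 1.97-fold in TKO_26, where it was below background, and 2.18-fold in TKO_29. Gad1, which makes the transmitter GABA, rose against a WT level below background, at least 2.72-fold in TKO_26 and at least 2.53-fold in TKO_29, and Cntn2 at least 1.07-fold and 1.12-fold. Grin1, an NMDA receptor subunit, rose 2.31-fold and 2.13-fold. All of these but Map1b, Gad1, Chga and Stmn4 were named after their values were seen.

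Markers of other cell types moved in the same samples, where 6.59% of all features fell and 4.05% rose in both lines. Of 8 cardiac muscle markers tested 7 fell, with Tnnt2 at -5.10 and -4.78 in TKO_26 and -4.73 and -4.69 in TKO_29, against 1.73 and 1.77 in WT. Of 8 endothelial markers 6 fell, of 8 visceral endoderm markers 6 fell, and of 6 blood markers tested 6 fell. Hbb-bh1, Hbb-y, Hba-x, Tal1, Tie1, Sox7, Afp and Apob entered only through WT, where they are high. Their place in these counts is a description. The median signal of the cardiac list was -5.33 and -5.61 in TKO_26 and -5.63 and -5.71 in TKO_29, against 0.29 and 0.32 in WT. The median of the endothelial list lay between -7.88 and -7.30 on the TKO arrays, against -2.41 and -2.11 in WT, that of the visceral endoderm list between -5.87 and -5.27, against -1.81 and -1.69, and that of the blood list between -9.55 and -8.05, against -3.02 and -3.14. That of the pluripotency and epiblast list was 0.37 and 0.52 in TKO_26 and 0.42 and 0.42 in TKO_29, against -0.24 and -0.21 in WT, and 3 of its 13 genes rose, namely Nanog, Tcl1 and Prdm14 (0 fell). Every one of these lists stood apart between the TKO arrays and WT in its median, and the part of these differences in the neural results was not tested.

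Lists of other cell types in which some of the neural genes are also known to act were mixed. Their counts stand beside 4.05% of all features that rose and 6.59% that fell in both lines. Of 10 neural crest genes tested, Erbb3 and Sox10 rose and Snai2, Ednrb, Ets1 and Sox9 fell, with a median mean difference of 0.03. Erbb3 and Sox10 entered only through the TKO lines where they are high. Snai2, a repressor of migrating crest cells that mesenchyme also expresses, fell 7.93-fold and 7.12-fold in TKO_26 and TKO_29. Erbb3, a receptor of crest-derived glia, was at least 2.04-fold and 2.87-fold higher. Sox10, a transcription factor of those glia, was 2.23-fold and 2.08-fold higher, with 1 WT array and 1 TKO_26 array well above background. Sox10 and Sox9 were named after their values were seen. Of 6 somite and skeletal muscle genes tested, in whose lineage Pax3 and Pax7 also act, 0 rose and Meox1 and Meox2 fell. Of 8 presomitic mesoderm genes 0 were called in both lines, and Lfng differed by 1.44 and 1.34 (adjusted p = 0.0642 and 0.0579). Of 5 pancreatic endocrine genes tested, a lineage in which Neurod1 and Nkx2-2 also act, Sst fell and 0 rose. Of 7 glial genes tested 0 were called in both lines, with a median mean difference of 0.44.

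**Figure D4:**
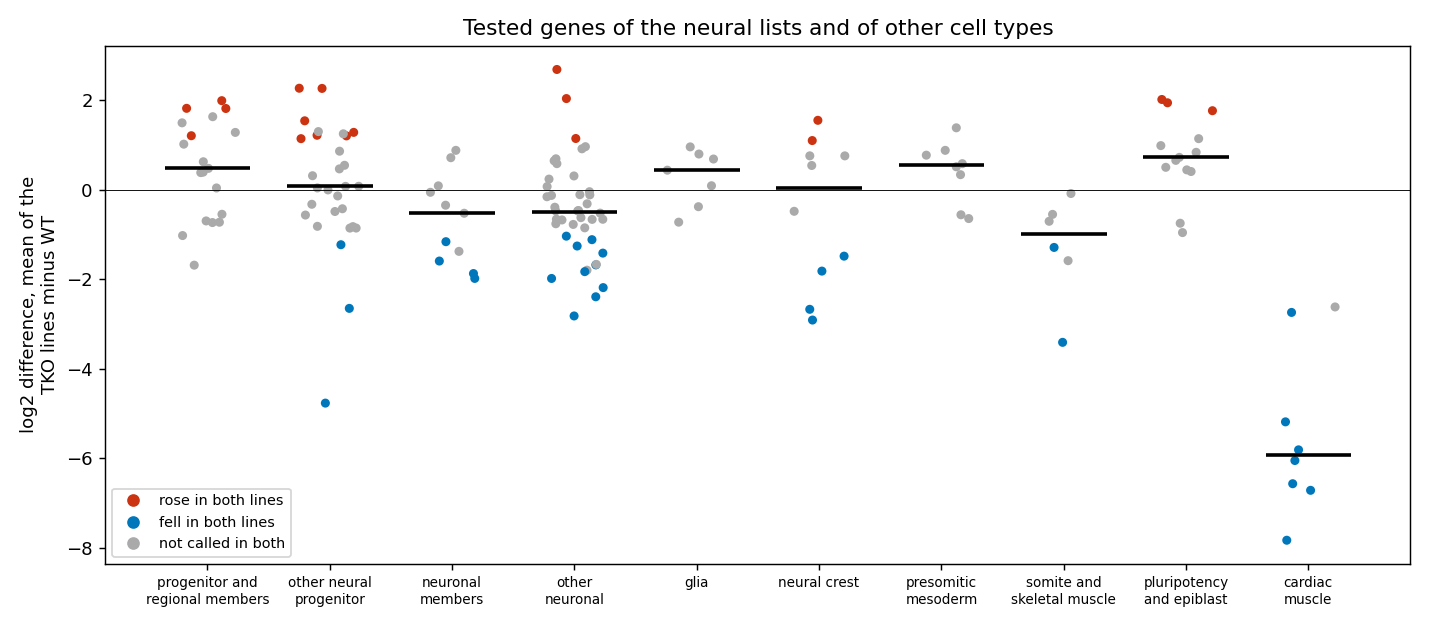
Mean log2 difference of the TKO lines from WT (y axis) for every tested gene of the 2 neural groups and of 8 other marker lists (x axis). Red points rose and blue points fell in both TKO lines, grey points were not called in both, and black bars are list medians; the progenitor and regional genes have a median of 0.48, the neuronal genes one of -0.52 and the cardiac markers one of -5.93.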

How the data were processed

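Per the labels' protocols, embryoid body total RNA was labelled with Cy3 and put on Agilent 1-colour mouse arrays, 2 for each of 3 lines. Per the file headers, Agilent Feature Extraction 10.5.1.1 wrote the intensity of every spot as a processed signal, background-corrected within its array but not scaled between arrays. A deposited matrix of the authors holds log2 values; how it was made is stated in neither the labels nor the headers used here. Its columns tracked the log2 median signal of their own arrays (Pearson r 0.9953 to 0.9998 across probes), the medians were 6.86 to 6.89 and genes were not centred. For TKO_29 replicate 1 the r of 0.9962 did not tell its column apart from another array (0.9963). The matrix served as an alternative only.

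Control spots and spots flagged as outliers were left out, saturated spots were kept and repeated spots averaged, which left 55418 of 55681 probes. Accessions without versions were matched to RefSeq genes of GRCm38.p6, giving 49.4% of these probes a symbol; 26023 of 26439 curated mRNA accessions matched. Log2 processed signals were scaled to the 75th percentile of each array over probes well above background on all 6 arrays. Probes entered if well above background on both arrays of some line, and the brightest such probe stood for its gene. The precision is limited by the 2 arrays of a line.

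Tests used limma 3.58.1 in R 4.3.3 (lmFit, eBayes) on all 6 arrays as 3 groups (3 residual degrees of freedom) and on line averages (1 degree of freedom), where WT is assumed to vary like the TKO lines. The calls in both lines were tested on simulated data with independent noise and the same change in both TKO lines. Such data cannot show how spread between lines or signals near background affect the calls. Parsing and figures used Python 3.11.15, pandas 2.3.3, numpy 2.4.6 and matplotlib 3.10.9. Alternatives were the filter on dim probes, background correction, scaling, the authors' matrix, a variance trend, the mean of the probes of a gene, a replicate block and leaving out each array. The scanner files used here lacked a mean signal, so normexp (offset 50) ran on the median signals. Replicates with the same number did not deviate together (r of deviations across features -0.28 for TKO_26 and TKO_29, 0.23 for TKO_26 and WT, -0.08 for TKO_29 and WT), so arrays were not paired.

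The members and all marker lists were chosen with earlier results of these data known. All 35 genes are named; of each other list, up to 4 genes called in both TKO lines, those with the largest mean difference first, or else the 1 with the largest difference, and any others are said to have been named after their values were seen. Some genes that this rule covers, or that were called, are not reported here.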

Additional observations from a re-analysis of the deposited data

How the results depend on the processing

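With the main settings 8 of the 30 genes were called in both TKO lines, 9 in TKO_26, 14 in TKO_29, 0 between the lines and 0 on line averages. With no filter on dim probes these numbers were 4 in both lines (2 progenitor and regional genes risen, 2 neuronal genes fallen), 4 in TKO_26 and 7 in TKO_29. With normexp background correction they were 3 in both lines (1 risen, 2 fallen), 3 in TKO_26, 8 in TKO_29 and 2 on line averages (3.83% of all features). With signal required on all 6 arrays, 9 were called in TKO_29 and 1, Sox21, between the lines (2.19% of all features). The authors' deposited matrix gave Sox21, 1 gene, between the lines and 6 on line averages, and the variance trend 1 (Sox21) and 5, where the matrix called 1.15% of all features between the lines and 8.46% on line averages, and the trend 2.25% and 7.10%. Leaving out 1 array gave 3 to 8 calls in both lines, with 1 to 5 progenitor and regional genes risen, 0 to 1 fallen and 2 to 3 neuronal genes fallen; the lowest of 3 came without WT replicate 1. It gave 3 to 9 calls in TKO_26, 5 to 14 in TKO_29 (5 without TKO_29 replicate 1), 0 to 2 between the lines (Sox1 and Lmx1a without TKO_26 replicate 2, where 6.92% of all features were called) and 0 on line averages. A line left with 1 array was assumed to vary like the others. The replicate number as a block gave 7 calls in both lines (3 risen, 4 fallen), 8 in TKO_26 and 12 in TKO_29, where Sox3 was not called; the numbers are not known to pair the arrays. Testing each probe as a feature, an alternative chosen after seeing the data, gave 8.

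The mean difference of the TKO lines from WT kept its direction and its call status in 417 of 468 values over 30 genes and all alternatives, lost the call in 34, gained one in 7 and changed sign in 10. Those 10 were Zic1 with the mean of its probes (-0.46), Pou3f2 without WT replicate 1 (0.69; its range with 1 array left out was -4.05 to 0.69), Nefl with scaling over all probes (0.024) and in the authors' matrix (0.01), Elavl3 without TKO_26 replicate 2 (-0.007) and without WT replicate 1 (-0.079; range with 1 array left out -0.079 to 0.261), and Nkx2-2 with normexp (-0.093) and without TKO_26 replicate 1 (-0.04), TKO_29 replicate 2 (-0.03) or WT replicate 2 (-0.109; range with 1 array left out -0.109 to 0.197). The cause of these changes was not tested. Over all features the number that rose in both lines was 867, against 387 with no filter, 306 with normexp, 449 with signal on all 6 arrays and 458 to 964 with 1 array left out. The number that fell was 1412, against 894, 889, 737 and 938 to 1428. The median of all features was -0.04 with the main settings and -0.14 with normexp. With no filter it was -0.24, over 36875 features and with the scaling unchanged. With scaling over all probes it was 0.038, and with quantile normalisation 0.025. Differences from WT as small as the shifts with normexp or with another scaling depend on the processing. Of the 30 genes, 18 rest on probes well above background on all 6 arrays. Pax7, Fabp7, Zic5, Lmx1a, Pax6, Six3, Pou3f2, Nkx2-2, Neurod1, Map2, Nefm and Syt1 rest on probes that were not.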

Other observations

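Components of Notch signalling other than Dll1 and Hes5 were lower or not called. Of 16 tested, Heyl, Notch4, Hey1 and Nrarp fell in both TKO lines and 0 rose, where 6.59% of all features fell and 4.05% rose. Hey1, a target of Notch that endothelium and heart also express, had -1.99 and -2.20 in TKO_26 and -2.34 and -2.51 in TKO_29, against -0.35 and -0.37 in WT. It fell 3.33-fold and 4.18-fold (limma adjusted p = 0.00240 and 0.00143). Nrarp, a feedback inhibitor of Notch, fell 2.83-fold and 2.51-fold, with 1 TKO_26 array well above background. Heyl fell at least 4.82-fold in TKO_26, where it was below background, and 8.11-fold in TKO_29. In the same samples 7 of 8 cardiac markers fell, and 6 of 8 endothelial markers, with Tie1 and Sox7 entering only through WT. The part of these markers in the Notch values was not tested.

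Among 9 repressors of neuronal genes and proneural factors, Id2 fell and 0 rose in both lines (6.59% and 4.05% of all features). Id2, which blocks basic helix-loop-helix factors, had -1.17 and -1.01 in TKO_26 and -0.98 and -1.14 in TKO_29, against 0.47 and 0.52 in WT. All TKO arrays were lower, 3.01-fold and 2.94-fold (adjusted p = 0.00252 and 0.00230). Rest, the repressor of neuronal genes outside the nervous system, differed by 0.77 and 0.84 (adjusted p = 0.0280 and 0.0159), under 2-fold, and was named after its values were seen.

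Of 8 surface ectoderm genes tested, Krt15 rose (2.41-fold and 2.34-fold) and Krt14 fell (2.93-fold and 3.23-fold) in both TKO lines, so the keratins of that list had no common direction. Over all features 4.05% rose and 6.59% fell in both lines.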
